A study of Homo sapiens with 27 samples.

Results

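Polyamine metabolism genes were followed in U937, a human acute myeloid leukemia cell line, through RNA-seq of control cells and of cells treated with matrine, an alkaloid of *Sophora flavescens*. The set held 10 genes chosen by symbol, ODC1, AMD1, SRM, SMS, SAT1, AZIN1, OAZ1, OAZ2, PAOX and SMOX, out of 57905 genes in the table. There were 3 control libraries, 3 libraries from cells exposed to matrine during 30 min and 3 from an exposure of 24 h, each at 0.8 mg/ml. The study names water as the vehicle of matrine, and the labels call the first group only a control. No group carried a genetic change, the cells are of a single line, and the same control libraries served both times, while the time they spent in culture is not given in the sources used here. The HL-60 and K562 libraries were not analysed here. All 10 genes were found by symbol, and 9 of them reached a mean level above 1 FPKM (fragments per kilobase of gene, scaled to the size of the library) and were tested. PAOX did not.

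Polyamines (putrescine, spermidine and spermine) are small positively charged molecules that bind nucleic acids and that growing cells need for translation. Ornithine decarboxylase makes putrescine, and S-adenosylmethionine decarboxylase supplies the aminopropyl groups with which spermidine synthase and spermine synthase extend it. Spermidine/spermine acetyltransferase and the oxidases take the chain back down, antizymes bind ornithine decarboxylase and send it to the proteasome, and the antizyme inhibitor frees it. ODC1 is a textbook target gene of c-Myc, the transcription factor that the study followed in these cells.

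The sequences at the starts of the 4 genes that changed are shown because 3 of them moved down together and c-Myc binds the letters CACGTG, the canonical E-box. They come from RefSeq promoter windows on GRCh38.p14, which run from 250 bases before a start to 50 after it, and 7 of the 10 genes had a window. AZIN1, PAOX and SMOX had none. The palindrome CACGTG, the same on both strands, is in capitals, and the stretches shown lie outside the exons of their gene in GENCODE release 44.
ODC1 upstream (chr2:10448328-10448577, minus strand): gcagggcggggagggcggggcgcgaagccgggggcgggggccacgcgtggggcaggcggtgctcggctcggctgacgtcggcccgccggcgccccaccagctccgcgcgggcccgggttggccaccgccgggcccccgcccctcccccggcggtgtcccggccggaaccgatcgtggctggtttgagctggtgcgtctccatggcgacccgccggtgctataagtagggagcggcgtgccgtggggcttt
ODC1 intron 1 (chr2:10448015-10448120, minus strand): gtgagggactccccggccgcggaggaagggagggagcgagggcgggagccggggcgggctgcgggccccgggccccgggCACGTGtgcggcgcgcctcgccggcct
SRM upstream (chr1:11060021-11060268, minus strand): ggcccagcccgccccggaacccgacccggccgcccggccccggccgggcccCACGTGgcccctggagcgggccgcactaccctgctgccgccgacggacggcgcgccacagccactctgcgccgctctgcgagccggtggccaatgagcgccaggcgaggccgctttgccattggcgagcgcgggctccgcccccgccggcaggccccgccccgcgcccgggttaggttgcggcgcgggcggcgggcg
AMD1 upstream (chr6:110874535-110874769, plus strand): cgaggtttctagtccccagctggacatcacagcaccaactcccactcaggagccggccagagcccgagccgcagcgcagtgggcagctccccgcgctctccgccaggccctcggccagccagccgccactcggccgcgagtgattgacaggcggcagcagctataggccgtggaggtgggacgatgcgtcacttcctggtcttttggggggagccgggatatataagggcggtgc
SAT1 upstream (chrX:23782923-23783172, plus strand): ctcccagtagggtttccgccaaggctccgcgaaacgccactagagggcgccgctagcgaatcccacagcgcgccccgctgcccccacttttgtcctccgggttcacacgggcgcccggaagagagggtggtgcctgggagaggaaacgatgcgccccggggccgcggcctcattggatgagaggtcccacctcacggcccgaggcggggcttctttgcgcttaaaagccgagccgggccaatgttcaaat
The stretch before the main ODC1 start holds no CACGTG. The copy shown in intron 1 lies at chr2:10448036-10448041, 29 bases before a second, internal ODC1 start in RefSeq, and another copy at chr2:10448002-10448007 follows that start. SRM holds 1 copy at chr1:11060212-11060217. The windows of AMD1, SAT1, SMS, OAZ1 and OAZ2 hold none. Of the 8584 genes tested at 24 h that have a window, 1135 (13.2%) hold CACGTG in at least 1 of their windows, so the motif is not particular to these genes, and binding was not measured.

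After 24 h of matrine treatment 3 genes of polyamine synthesis were down-regulated and 1 gene of polyamine breakdown was up-regulated. ODC1, AMD1 and SRM fell to between 0.483 and 0.577 of the control on the fitted scale, and SAT1 rose 2.38-fold. The other 5 genes tested, SMS, SMOX, OAZ1, OAZ2 and AZIN1, were not called. A call needed an adjusted p below 0.05 in edgeR's quasi-likelihood test and a fold change of at least 1.5. Of all 12035 genes tested at 24 h, 11.2% were called lower and 15.1% were called higher. In either direction 4 of 9 members were called, beside 26.3% of all genes. Their median log2 fold change was -0.0056, beside 0.0082 over all genes tested. In RNA from whole cultures, less mRNA in every cell and fewer cells that express the gene cannot be told apart, and neither can matrine and the time in culture.

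**Figure D1:**
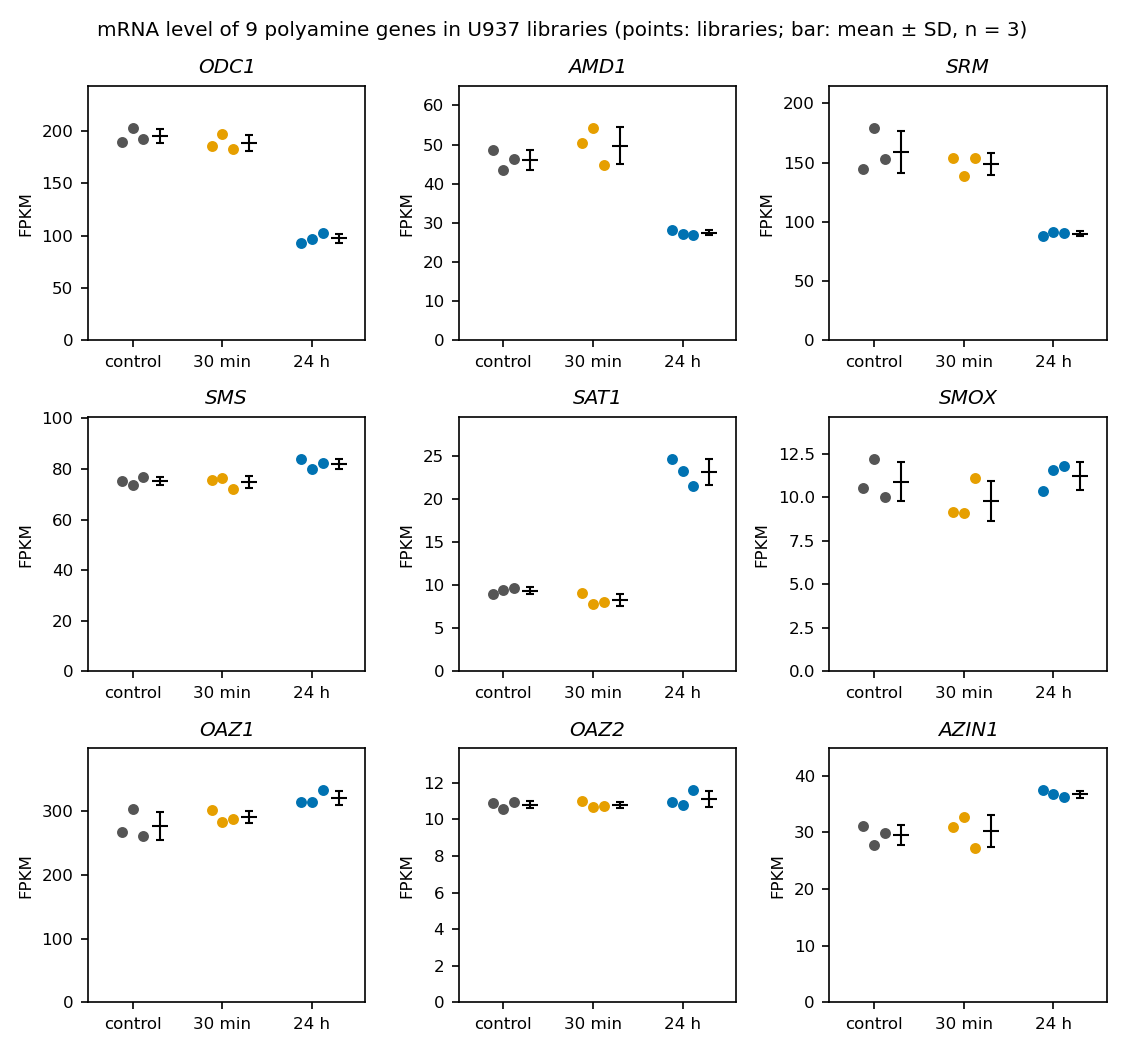
mRNA level in FPKM (vertical axes, from 0) of the 9 genes tested in each of the 3 control, 3 matrine 30 min and 3 matrine 24 h libraries; points are libraries and bars the mean ± SD (n = 3). The 24 h libraries of ODC1 (93.4 to 102.12 FPKM), AMD1 and SRM lie below all others and those of SAT1 (21.5 to 24.6 FPKM) above all others.

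ODC1 (ENSG00000115758, chromosome 2 of GRCh38 from 10439968 to 10448327) encodes ornithine decarboxylase, the rate-limiting enzyme of the pathway. Its level was 189.6, 202.4 and 192.6 FPKM in control cells, 185.1, 197.5 and 183.04 FPKM at 30 min and 93.4, 96.7 and 102.12 FPKM at 24 h. The 24 h libraries lay below both other groups with a wide gap, whereas the control and 30 min libraries overlapped. The mean ranked 183 among all genes of the table in the control and 424 after 24 h. Between 9899 and 12048 fragments were counted per library in the first 2 groups and between 5694 and 6622 after 24 h. The log2 fold change at 24 h was -1.05 (standard error 0.056, edgeR adjusted p = 1.6e-12), or 2.07-fold lower.

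AMD1 (ENSG00000123505, chromosome 6 from 110874770 to 110898879) encodes S-adenosylmethionine decarboxylase, which makes the aminopropyl donor. It measured 48.5, 43.5 and 46.3 FPKM in control cells, 50.3, 54.1 and 44.7 FPKM at 30 min and 28.2, 27.3 and 26.97 FPKM at 24 h. Again the 24 h libraries were all lower than the rest. At this lower mean they were also closer to each other (SD 0.667 FPKM, n = 3) than the control libraries (SD 2.50 FPKM, n = 3). That was not particular to AMD1, as SRM also had a smaller SD at 24 h, while SMS and SAT1 had larger ones. The log2 fold change at 24 h was -0.79 (standard error 0.066, edgeR adjusted p = 1.4e-09), or 1.73-fold lower. Processed pseudogenes of AMD1 in the table reached at most 0.29 FPKM in any library.

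SRM (ENSG00000116649, chromosome 1 from 11054584 to 11060020) encodes spermidine synthase. In the control its level was 144.6, 178.8 and 152.6 FPKM, with replicate 2 the highest, in the 30 min group 154.1, 138.2 and 153.9 FPKM, and in the 24 h group 87.8, 91.5 and 90.7 FPKM. The 24 h libraries did not overlap with either other group. At 24 h the log2 fold change was -0.87 (standard error 0.073, edgeR adjusted p = 1.9e-09), or 1.82-fold lower. AMD1 and SRM were called at 1.5-fold but not at the stricter fold of 2, where ODC1 was the 1 member called lower.

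SMS (ENSG00000102172, chromosome X from 21940709 to 21994837) encodes spermine synthase, which carries out the step after SRM. The level was 75.2, 73.6 and 76.7 FPKM in control cells, 75.8, 76.4 and 72.1 FPKM at 30 min and 83.8, 80.1 and 82.3 FPKM at 24 h. Although the 24 h libraries lay above the control libraries in FPKM, the fitted log2 fold change was 0.079 (standard error 0.052) with an edgeR adjusted p of 0.19. Over the edgeR, DESeq2 and limma alternatives the adjusted p ranged from 0.018 to 0.94 and the log2 fold change from 0.013 to 0.13. None of them called SMS. SMS was thus the 1 synthesis gene of 4 that was not called.

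**Figure D2:**
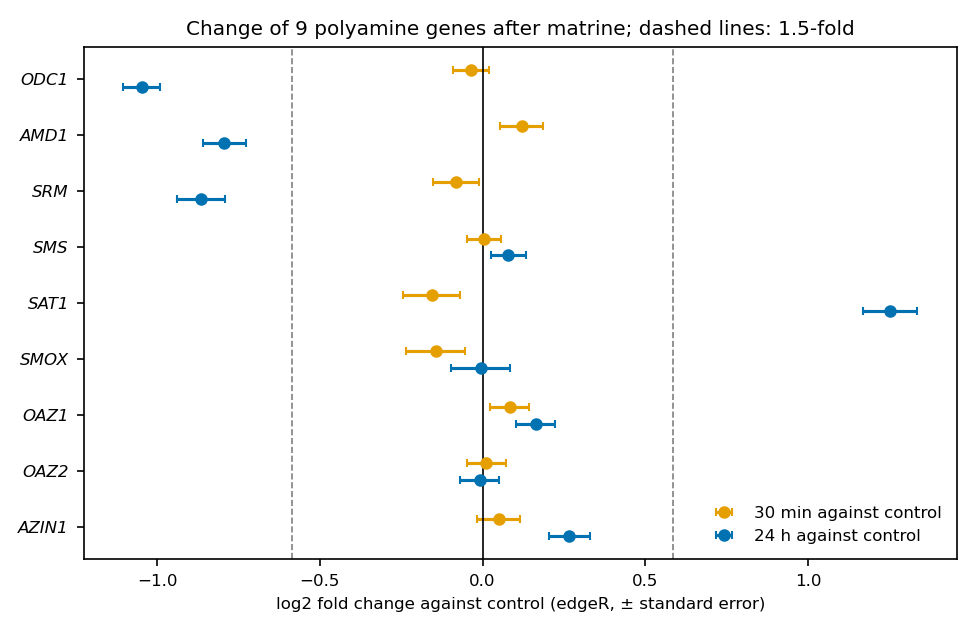
log2 fold change against the control (horizontal axis, edgeR, ± standard error) of the 9 genes tested after 30 min and after 24 h of matrine; dashed lines mark a 1.5-fold change. At 30 min every gene lies between -0.16 and 0.12, and at 24 h ODC1, AMD1 and SRM lie left of the lower line and SAT1, at 1.25, right of the upper line.

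The genes of polyamine breakdown did not move together. SAT1 (ENSG00000130066, chromosome X from 23783173 to 23786210) encodes spermidine/spermine acetyltransferase, whose products are exported or oxidized. Its level was 8.97, 9.45 and 9.71 FPKM in control cells, 9.13, 7.87 and 7.99 FPKM at 30 min and 24.6, 23.2 and 21.5 FPKM at 24 h. Every 24 h library was more than 2-fold above every other library. The log2 fold change at 24 h was 1.25 (standard error 0.083, edgeR adjusted p = 4.5e-11), and 96.0% of the genes tested had a lower or equal value. This rested on 420 to 466 fragments per control library and 1175 to 1261 per 24 h library. Counts per gene do not separate the spliced forms of SAT1.

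SMOX (ENSG00000088826, chromosome 20 from 4120980 to 4187747), the spermine oxidase gene, measured 10.5, 12.2 and 10.0 FPKM in control cells, 9.18, 9.10 and 11.1 FPKM at 30 min and 10.3, 11.6 and 11.8 FPKM at 24 h. The 3 groups overlapped, and the log2 fold change at 24 h was -0.0056 (standard error 0.091, edgeR adjusted p = 0.96). PAOX (ENSG00000148832), which encodes the oxidase that acts on acetylated polyamines, had 7 counts in the control libraries in all, 0 after 30 min and 3 after 24 h. These counts were too few for a difference to be detected, and no fold change was taken. The exons of PAOX overlap those of ENSG00000254536 on the same strand, a gene that reached at most 0.09 FPKM. Whether fragments shared by both genes were left uncounted was not tested.

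The genes that regulate ornithine decarboxylase after translation changed little or were not called. OAZ1 (ENSG00000104904, chromosome 19 from 2269509 to 2273490), which encodes antizyme 1, was the most abundant member in every group. Its level was 267.1, 303.2 and 261.8 FPKM in control cells, 302.5, 283.0 and 288.7 FPKM at 30 min and 315.4, 314.9 and 333.04 FPKM at 24 h. All 24 h libraries lay above the control, with a log2 fold change of 0.16 (standard error 0.061) and an edgeR adjusted p of 0.024. That is under the 1.5-fold limit, and its adjusted p ranged from 0.0011 to 0.183 over the alternatives. The exons of OAZ1 overlap those of JSRP1 on the opposite strand, a gene that reached at most 3.39 FPKM.

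OAZ2 (ENSG00000180304, chromosome 15 from 64687573 to 64703281), the gene of antizyme 2, lay close to its control level at both times. It measured 10.9, 10.6 and 10.9 FPKM in control cells, 10.99, 10.7 and 10.7 FPKM at 30 min and 10.9, 10.8 and 11.6 FPKM at 24 h, with a log2 fold change of -0.0093 (standard error 0.060, edgeR adjusted p = 0.90) at 24 h. AZIN1 (ENSG00000155096, chromosome 8 from 102826111 to 102893864) encodes the antizyme inhibitor, a catalytically inactive relative of ornithine decarboxylase. Its level was 31.05, 27.7 and 29.95 FPKM in control cells, 30.9, 32.8 and 27.2 FPKM at 30 min and 37.4, 36.7 and 36.2 FPKM at 24 h. The 24 h libraries lay above all others, at a log2 fold change of 0.27 (standard error 0.063, edgeR adjusted p = 0.00097), which is under the fold limit. Of the 9 members, 3 had all 24 h libraries below the control and 4 had them above, where 31% and 38.7% of all genes tested did.

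**Figure D3:**
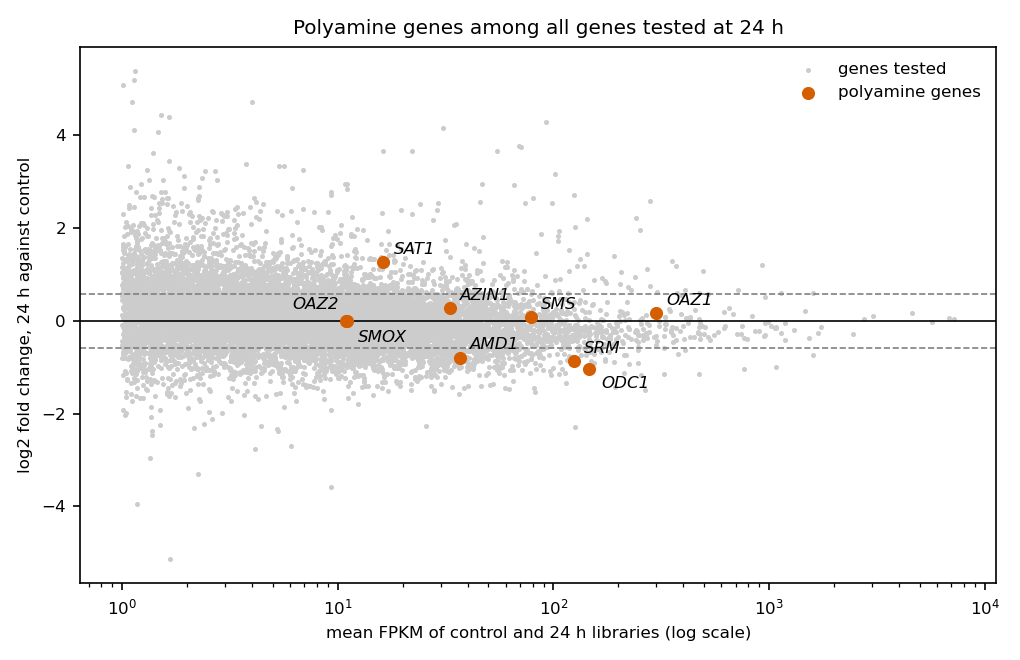
log2 fold change at 24 h against control (vertical axis) and mean FPKM of the control and 24 h libraries (horizontal axis, log scale) for the 12035 genes tested, with the 9 members in orange. ODC1, SRM and AMD1 lie below the lower dashed line of a 1.5-fold change, SAT1 above the upper one, and the other 5 between the lines.

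After 30 min of matrine treatment 0 of the 9 members were called in either direction, where 0.639% of the 11587 genes tested were called, 0.544% lower and 0.0949% higher. By an unadjusted p below 0.05 in edgeR the number was also 0, beside 1284 of the 11587 genes. DESeq2 and limma called 0 members. The log2 fold changes ran from -0.16 for SAT1 (standard error 0.087) to 0.12 for AMD1 (standard error 0.066), and that of ODC1 was -0.036 (standard error 0.055). In all 9 members the matrine and control libraries overlapped, whereas 8.91% of all genes had the matrine libraries below the control and 4.89% above. Replicates differed more from each other at 30 min than at 24 h, and the part of this in the overlap was not tested. MYC, which encodes c-Myc, had 204.3, 213.1 and 204.2 FPKM in control cells, 49.1, 55.1 and 58.03 FPKM at 30 min and 42.2, 46.05 and 43.1 FPKM at 24 h. Its mRNA was thus already low at 30 min (log2 fold change -1.93, standard error 0.061, edgeR adjusted p = 2.7e-14), at a time when the libraries of ODC1, AMD1 and SRM overlapped with those of the control.

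The later change was tested directly by comparing 24 h with 30 min, a contrast between the matrine groups. The control libraries enter it only through the shared scaling and the estimate of the spread. The log2 fold change was -1.03 for ODC1 (standard error 0.056, edgeR adjusted p = 2.0e-12), -0.93 for AMD1 (standard error 0.066) and -0.81 for SRM (standard error 0.073). For SAT1 it was 1.39 (standard error 0.083). The same 4 members were thus called, 3 lower and 1 higher, where 11.5% of 11981 genes were called lower and 15.4% higher, or 26.9% in either direction. In FPKM 3 members had all 24 h libraries below those of 30 min and 4 had them above, beside 28.6% and 39.9% of all genes. AZIN1, at 0.20 (standard error 0.063, edgeR adjusted p = 0.0094), stayed under 1.5-fold, and SMS, SMOX, OAZ1 and OAZ2 had adjusted p-values from 0.26 to 0.57. Over the edgeR, DESeq2 and limma alternatives their lowest adjusted p was 0.013, 0.044, 0.030 and 0.35 in that order, and none was called. Both comparisons share the 24 h libraries.

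Ratios between members within a library do not depend on how libraries are scaled, and 6 of them, chosen after the levels were seen, were computed from FPKM. The ratio of SRM to SMS, the synthases of spermidine and spermine, was 1.92, 2.43 and 1.99 in control cells, 2.03, 1.81 and 2.13 at 30 min and 1.05, 1.14 and 1.10 at 24 h. All 3 libraries of 24 h were below the others, with SRM close to SMS. The ratio of ODC1 to AZIN1 was 6.62 ± 0.624 (SD, n = 3) in control cells, 6.25 ± 0.417 (SD, n = 3) at 30 min and 2.65 ± 0.163 (SD, n = 3) after 24 h. That of ODC1 to OAZ1 went from 0.704 ± 0.0344 (SD, n = 3) in the control to 0.303 ± 0.0062 (SD, n = 3) after 24 h. ODC1 stood 20.8-fold above SAT1 in the control (SD 0.842, n = 3), 22.8-fold after 30 min (SD 2.41, n = 3) and 4.24-fold after 24 h (SD 0.475, n = 3). AMD1 to SMS had means of 0.613 in control cells and 0.335 after 24 h. The ratio of AZIN1 to OAZ1 was 0.107 ± 0.0139 (SD, n = 3) in the control and 0.115 ± 0.0052 (SD, n = 3) after 24 h, and these libraries overlapped. In a two-sided exact permutation test of log2 ratios those that involve ODC1, SRM or AMD1 reached p = 0.1 at 24 h, the smallest that 3 against 3 libraries allow, and p = 0.5 for AZIN1 to OAZ1. None therefore passed 0.05, before or after adjustment over the 6 ratios.

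**Figure D4:**
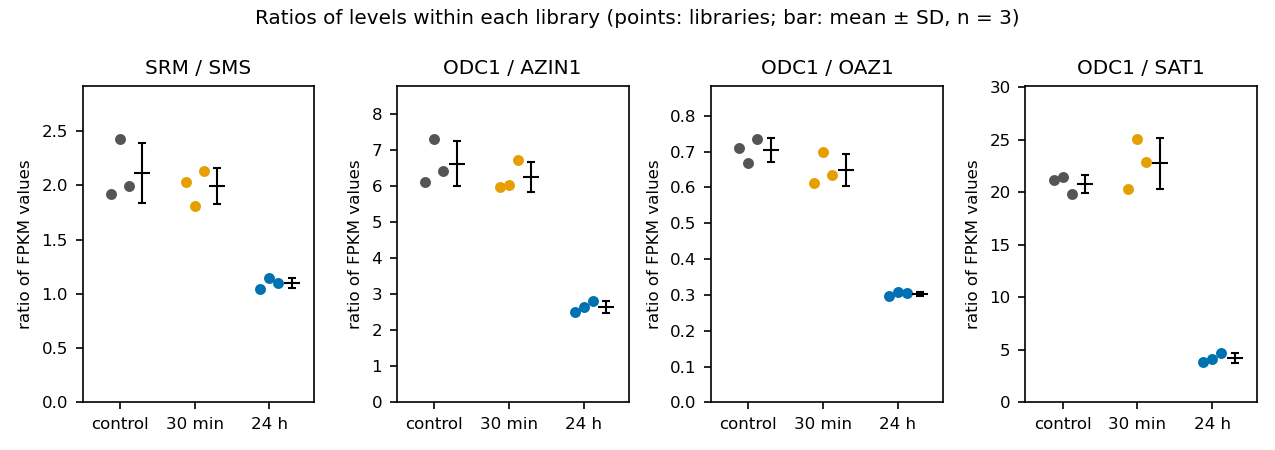
Ratio of FPKM values within each library (vertical axes, from 0) for SRM to SMS, ODC1 to AZIN1, ODC1 to OAZ1 and ODC1 to SAT1 in the control, 30 min and 24 h groups; points are libraries and bars the mean ± SD (n = 3). In each panel the 24 h libraries lie below all others, for SRM to SMS between 1.05 and 1.14 against 1.92 to 2.43 in the control.

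The order of the members by level per length changed with these shifts. In the control it ran from OAZ1 (277.4 FPKM) over ODC1 (194.9), SRM (158.7), SMS (75.2), AMD1 (46.1) and AZIN1 (29.6) to SMOX (10.9), OAZ2 (10.8), SAT1 (9.38) and PAOX (0.053). SMOX and OAZ2 overlapped there, while the other neighbours did not. After 30 min the order was kept except that OAZ2 (10.8 FPKM) stood before SMOX (9.81), with overlapping libraries, and SMOX also overlapped with SAT1 (8.33). After 24 h OAZ1 (321.1 FPKM) stood first, and ODC1 (97.4), SRM (90.02) and SMS (82.1) followed at similar levels without overlapping. AZIN1 (36.7 FPKM) now stood above AMD1 (27.5), and SAT1 (23.1) above SMOX (11.2) and OAZ2 (11.1), which overlapped.

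A wider list held 24 further genes of polyamine-related steps, of which 16 were tested. At 24 h 3 were called lower (EIF5A, DOHH and MTAP) and 1 higher (SAT2), while another 6 had an adjusted p below 0.05 but under 1.5-fold. These 4 of 16 stood beside 26.3% of all genes called in either direction, and the 6 beside 4454 of 12035 genes, so neither count stood out. Their median log2 fold change was -0.18, beside 0.0082 over all genes tested. At 30 min 0 of the 16 were called by edgeR, DESeq2 or limma. An unadjusted edgeR p below 0.05 was seen for 3 of the 16, beside 1284 of all 11587 genes tested. The spread by function is shown in the plot of the wider list.

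Among the 16 genes tested, the largest decreases at 24 h were in hypusination, the spermidine-dependent modification of the translation factor eIF5A. EIF5A itself measured 278.5, 310.9 and 281.3 FPKM in control cells, 305.9, 280.4 and 297.9 FPKM at 30 min and 151.6, 155.9 and 163.5 FPKM at 24 h. It was 1.91-fold lower at 24 h (log2 fold change -0.93, standard error 0.060, edgeR adjusted p = 2.8e-11). DOHH, the second enzyme of the modification, measured 25.6, 30.5 and 23.6 FPKM in control cells, 28.02, 24.4 and 27.5 FPKM at 30 min and 17.5, 16.0 and 15.8 FPKM at 24 h, a 1.67-fold decrease at 24 h (edgeR adjusted p = 4.0e-07). For both genes the 24 h libraries lay below all others. DHPS, the first enzyme, had a 24 h log2 value of -0.29 (standard error 0.068, edgeR adjusted p = 0.00080). Its 24 h libraries lay below the control, but the change was under 1.5-fold. EIF5A2, the low paralog, had one of 0.12 (standard error 0.15, edgeR adjusted p = 0.51) with overlapping libraries. Neither gene was called. In this small group 2 of 4 genes were called, beside 26.3% of all genes in either direction. Both were lower, beside 11.2% of all genes called lower. It is the group of the wider list with the largest decreases, so this count is a selected one.

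**Figure D5:**
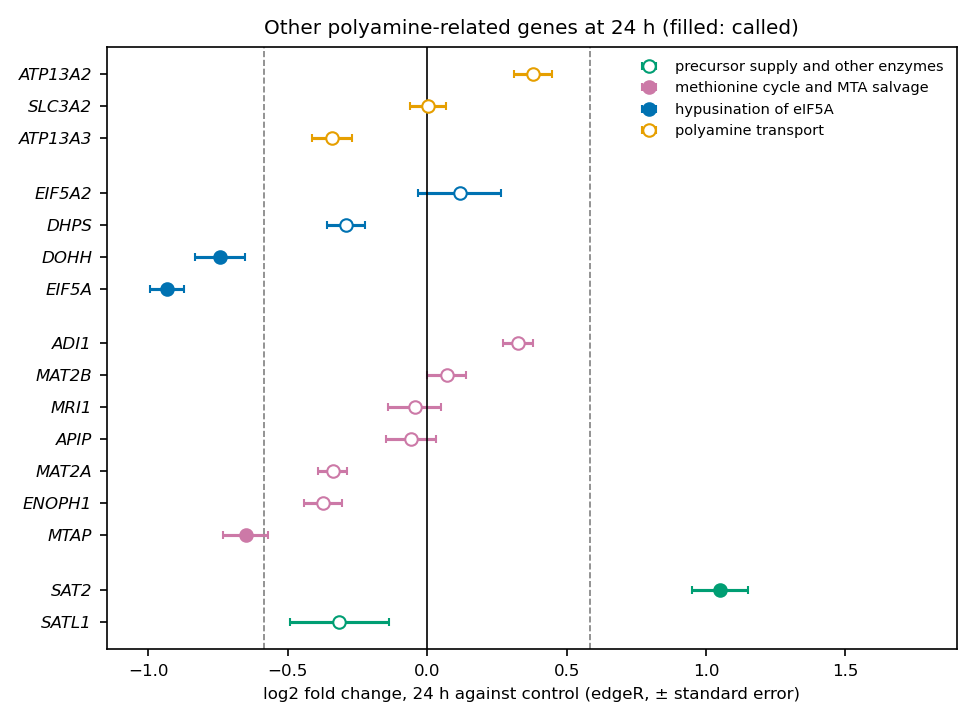
log2 fold change at 24 h against control (horizontal axis, edgeR, ± standard error) of the 16 tested genes of the wider list, coloured by function; filled points were called and dashed lines mark a 1.5-fold change. EIF5A, DOHH and MTAP lie left of the lower line and SAT2, at 1.05, right of the upper line.

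In the methionine cycle and the salvage of methylthioadenosine, the by-product of aminopropyl transfer, 1 of 7 genes tested was called, beside 26.3% of all genes. MTAP, the phosphorylase that opens the salvage route, measured 7.93, 6.55 and 7.10 FPKM in control cells, 6.63, 6.96 and 5.83 FPKM at 30 min and 4.86, 4.77 and 4.57 FPKM at 24 h. Its log2 fold change at 24 h was -0.65 (standard error 0.080, edgeR adjusted p = 4.5e-07), close to the fold limit. All of its 24 h libraries lay below both other groups. It was no longer called without replicate 1 of the control (-0.58) or with limma on log2(FPKM + 1) (-0.51). MAT2A, which makes S-adenosylmethionine, had -0.34 (standard error 0.052), ENOPH1 -0.38 (standard error 0.068) and ADI1 0.33 (standard error 0.053), all with adjusted p-values below 0.05 and under 1.5-fold.

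Among the other enzymes, SAT2, a gene related to SAT1 by name and sequence, measured 6.67, 7.10 and 6.89 FPKM in control cells, 7.08, 5.66 and 6.71 FPKM at 30 min and 14.8, 15.2 and 14.3 FPKM at 24 h. The 24 h libraries lay above all others, and the log2 fold change was 1.05 (standard error 0.10, edgeR adjusted p = 1.4e-08), or 2.07-fold. The transporter genes ATP13A2, of the lysosomal polyamine exporter, and ATP13A3 had log2 fold changes of 0.38 (standard error 0.068) and -0.34 (standard error 0.073) at 24 h. Their edgeR adjusted p-values were 5.5e-05 and 0.00035, but both changes were under 1.5-fold and were not called. ARG1, ARG2, AGMAT, AZIN2, OAZ3, AOC1, MAT1A and SLC18B1 were under the filter on low levels and were not tested.

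Library totals lay between 17314931 and 21930018 counts, with 4.99% to 5.28% of each in its 10 leading genes. Of 9 myeloid markers 5 (SPI1, CD33, LYZ, PTPRC and ITGAM) had a mean above 1 FPKM over all libraries, whereas CD14 reached at most 0.26 FPKM, and CD68 and CSF1R stayed under 1 FPKM. MPO, a granule enzyme gene of myeloid precursors, measured 0.21 to 0.44 FPKM in the controls, 0.28 to 0.50 at 30 min and 1.66 to 1.94 at 24 h. The summed myeloid level was 390.6 to 396.2 FPKM in control cells, 385.03 to 412.8 at 30 min and 342.9 to 348.1 at 24 h. Single markers went both ways: LYZ had means of 292.3 FPKM in control cells and 243.6 at 24 h, while PTPRC went from a mean of 16.4 FPKM to one of 24.2 and ITGAM from a mean of 1.28 FPKM to one of 3.15, both without overlap. Erythroid markers, which the K562 line expresses, summed to at most 0.03 FPKM in any library, and epithelial markers to at most 0.05. Lymphoid markers, of which CD3E was at 0, summed to 2.56 to 3.66 FPKM in control cells, 2.89 to 3.56 at 30 min and 3.74 to 4.14 at 24 h. The part of these shifts in the results at 24 h was not tested.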

How the data were processed

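RNA-seq of 9 U937 libraries was analysed, 3 for each of 3 groups taken from the sample titles. The authors mapped reads with HISAT2 2.0.1, estimated gene levels with HTSeq 0.6.1 (the submitters' processing notes also name cutadapt 1.9.1), and deposited raw counts and FPKM values for 57905 Ensembl genes. The paper names hg38 and the submitters' processing notes GRCh37, and the annotation release and strand setting are not given in the sources used here. Positions printed are those of GENCODE release 44 on GRCh38, and 51996 identifiers matched a symbol. FPKM gave the levels and ratios, and counts the tests.

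Counts were normalized with TMM and tested with edgeR 4.0.16 (R 4.3.3) by quasi-likelihood in 1 model of all 9 libraries. Benjamini-Hochberg adjustment ran over all genes with a mean FPKM above 1 in the 6 libraries compared. Calls needed an adjusted p below 0.05 and at least 1.5-fold. Standard errors were derived from the log2 fold change and the F statistic. On simulated data with 200 of 11899 genes changed 2- or 3-fold between 24 h and control, the test recovered 193 with 4 false calls. The simulation gave every gene the same spread and changed far fewer genes than the 3164 of 12035 called in the data. It held no change under 2-fold, so it does not speak to the calls of AMD1, SRM, EIF5A, DOHH and MTAP.

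Alternatives were DESeq2 1.42.0, limma 3.58.1 on log2(FPKM + 0.1) or log2(FPKM + 1), other scalings, filters and fold limits, a replicate block, the 6 libraries alone, and each library left out. Replicate libraries were distinct beyond sampling noise (chi-square per gene 2.14 to 11.9 for pairs). By group it was 2.38 to 7.39 for control pairs, 5.28 to 11.9 for 30 min pairs and 2.14 to 3.11 for 24 h pairs. The study names independent replicates for its data in general, but whether these libraries came from separate cultures is not given in the sources used here, so p-values measure the spread between these samples, which may be technical. Depth lay between 17314931 and 21930018 counts per library. Named genes were the 10 members, the genes of the wider list that were called, and MYC. The members and lists were chosen with earlier results of these data known, and genes of the wider list that were not called (DHPS, EIF5A2, MAT2A, ENOPH1, ADI1, ATP13A2, ATP13A3) were named after their values were seen.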

Additional observations from a re-analysis of the deposited data

Results flagged for a closer look

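For 7 genes the change from the control differed between 30 min and 24 h, by edgeR's test of 24 h against 30 min with an adjusted p below 0.05 and at least 1.5-fold. They were 4 of 9 members tested and 3 of 16 genes of the wider list, beside 26.9% of all genes. By the adjusted p alone it was 5 members and 12 genes of the wider list, beside 7797 of 11981 genes. The log2 difference was -1.03 for ODC1, -0.93 for AMD1, -0.81 for SRM and 1.39 for SAT1 among the 10 members. In the wider list it was 1.10 for SAT2, -0.78 for DOHH and -0.99 for EIF5A. In each of the 7, all 3 libraries of 24 h lay on the same side of all 3 libraries of 30 min. Of all genes, 28.6% had them below and 39.9% above. The 7 were picked by this same contrast, so the separation adds no support. Groups of 3 libraries are too small for a test of single outlying libraries.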

How the results depend on the processing

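ODC1 and SAT1 kept their calls and directions at 24 h, against the control and against 30 min, under all 17 alternatives run for each comparison, with log2 fold changes against the control from -1.12 to -0.99 for ODC1 and from 1.19 to 1.31 for SAT1. AMD1 (-0.86 to -0.73) and SRM (-0.94 to -0.78) lost the call at a fold of at least 2 and under no other alternative. At that limit 1 member and 0 genes of the wider list were lower at 24 h, both against the control and against 30 min, beside 355 and 345 of all genes. Without a fold limit, 3 members were higher at 24 h and 2 against 30 min, beside 3794 of 12035 and 3894 of 11981 genes. In the wider list, of 16 genes tested, 7 were lower and 3 higher at 24 h, and 8 lower and 4 higher against 30 min. Of all genes, 3824 were lower at 24 h and 3903 against 30 min. Without a filter on FPKM the wider list had 4 lower and 2 higher genes at 24 h, and 4 lower and 2 higher against 30 min. That setting also tests genes under 1 FPKM and gave far smaller edgeR adjusted p-values, for ODC1 at 24 h 4.6e-81 beside 1.6e-12 with the filter. The share of all genes called in it is not given here, so these counts are not read as a larger response of the list. Against 30 min the wider list also had 2 higher genes with library totals alone and with limma on log2(FPKM + 0.1), since EIF5A2 then passed the fold limit. EIF5A2 had been lower than the control at 30 min (-0.47, not called) and was near it at 24 h (0.12).

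Leaving out each library in turn gave the members 3 lower and 1 higher genes at 24 h every time. The wider list had 2 to 3 lower genes at 24 h, the 2 without replicate 1 of the control. Against 30 min it had 2 to 3 lower and 1 to 2 higher genes. MTAP was the third lower gene without replicate 3 of 30 min (-0.61), and EIF5A2 the second higher gene without replicate 3 of 24 h or replicates 1 or 2 of 30 min. The replicate block gave 3 lower and 1 higher members at 24 h and the same counts as without it in every comparison. Deviations of same-numbered libraries correlated at -0.14 to 0.087, and control replicate 1 correlated more with replicate 2 of 30 min (0.13) than with replicate 1 (-0.055), so the numbers were not taken as pairs.

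Values near 0 that were not called changed sign. At 30 min the SMS value of 0.0053 became -0.0036 with the FPKM filter at 5, -0.0073 with library totals, -0.0077 and -0.0076 with limma at pseudocounts 0.1 and 1, and lay between -0.011 and 0.036 with libraries left out. OAZ2 at 30 min went from 0.011 to -0.0016, -0.0013 and -0.0012 with library totals and limma at both pseudocounts. At 24 h the OAZ2 value of -0.0093 became 0.045 with the FPKM filter at 5, 0.038 with library totals, and 0.037 and 0.035 with limma at both pseudocounts. SMOX at 24 h went from -0.0056 to 0.050, 0.043, 0.045 and 0.042 in the same order. Against 30 min SMS went from 0.054 to -0.0033 without a filter, and OAZ2 from -0.040 to 0.036, 0.040, 0.039 and 0.036 under the 4 alternatives. With libraries left out, the 30 min values lay between -0.13 and 0.021 for SRM, -0.0078 and 0.046 for OAZ2, -0.15 and 0.042 for SAT2 and -0.066 and 0.13 for DOHH, and the 24 h values between -0.058 and 0.018 for OAZ2 and -0.073 and 0.071 for SMOX. With library totals the median log2 fold change over all genes tested moved as well. It went from 0.0082 to 0.056 at 24 h and from 0.014 to 0.094 against 30 min. The cause of the sign changes was not tested. PAOX, with 10 counts in 9 libraries, had too few counts to be compared.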
